A study of Mus musculus with 6 samples.

Results

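The genes of the cytosolic ribosome and of the translation factors were followed in myeloid-derived suppressor cells (MDSCs), immature myeloid cells that dampen T cell responses. They were taken by symbol: genes beginning with Rpl or Rps, without the S6 kinases (Rps6k), and genes beginning with Eif or Eef, without the Y-linked Eif2s3y. In the deposited table, 84 of 8191 genes met this rule, of which 34 were ribosomal protein genes, 44 initiation factor genes, and 6 elongation factor genes. RNA-seq covered splenic MDSCs from old animals of 3 genotypes, WT, Tnfr1-/-, and Tnfr2-/-, all of BALB/c background, in 2 samples per genotype and 6 in all. The mice were 18 to 24 months old, the cells of 5 mice were pooled for each sample, and the cells were neither cultured nor treated. Tnfr1 and Tnfr2 encode the receptors of tumor necrosis factor, and the labels give both deletions without a restriction to a cell type.

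A ribosome has a small subunit, which reads the mRNA, and a large subunit, which joins the amino acids, and each holds its own set of proteins around ribosomal RNA. Initiation factors of the eIF4 group bind the mRNA cap and unwind the leader, eIF3 and eIF2 bring the initiator tRNA with the small subunit, and eIF2B reloads eIF2 with GTP. Elongation factors then deliver each aminoacyl-tRNA and move the ribosome along. Many mRNAs of ribosomal proteins start with a run of pyrimidines, the 5′ terminal oligopyrimidine motif, through which mTORC1 controls their translation. Kinases that phosphorylate eIF2alpha, and the binding proteins of eIF4E, slow initiation when cells are stressed or starved. The 44 initiation factor genes were taken by symbol and include 3 eIF2alpha kinase genes and 3 genes whose proteins bind eIF4E.

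Expression is given in FPKM, which scales reads to transcript length and to the reads of the sample. Genes were compared with limma on log2(FPKM + 1) and called different at a Benjamini-Hochberg adjusted p under 0.05 and a fold change over 1.5. All changes below are on that scale, which understates the change of genes with low values. The authors had kept only genes whose one-way ANOVA over the 3 genotypes gave a p under 0.05, so every gene followed here already differed somewhere among the samples. Counts of called members are therefore read only against the share of the whole table. Genes outside the table were not analysed here. With 2 samples per group, an exact two-sided test could not go below 0.333.

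The whole table differed between WT and both knockouts. It summed to 344714 and 346870 FPKM in WT, 134343 and 133604 in Tnfr1-/-, and 148956 and 155248 in Tnfr2-/- samples, and WT values were written with up to 10 significant digits against 6 in the knockouts. Against WT, the median gene changed by -0.74 in Tnfr2-/- and by -0.83 in Tnfr1-/- MDSCs on the log2 scale, and median-ratio size factors brought these to -0.032 and -0.033, so each class below is given under both scalings. Tnfrsf1b, which encodes TNFR2, stood at 112 and 115 FPKM in WT, 47.8 and 69.6 in Tnfr1-/-, and 11.3 and 14.3 in Tnfr2-/- samples, and Tnfrsf1a is not in the table. Of 5 genes that define MDSCs, Ptprc and Ly6c1 are listed, and Ly6c1 was at 0.2 and 0.1 FPKM in WT against 95.8 to 178 in the knockouts. Among 9 macrophage markers, 8 are listed and none was at 0. They summed to 3060 to 3201 FPKM in WT, 279 to 321 in Tnfr1-/-, and 355 to 390 in Tnfr2-/- samples. Of 14 granulocyte markers, 3 are listed, none at 0, and they summed to 13.7 to 15.4 FPKM in WT, 2732 to 3069.5 in Tnfr1-/-, and 1522 to 2450 in Tnfr2-/- samples. The 5 listed of 9 B and plasma cell markers, none at 0, summed to 211 to 245, 1197 to 1829, and 2334 to 2352 FPKM in the same order. Sums of the 4 listed of 6 monocyte markers were 245 to 258, 211 to 263, and 465 to 547 FPKM, those of the 4 of 6 dendritic cell markers 223 to 228, 14.4 to 15.3, and 18.7 to 21.8, and those of the 3 of 11 T and NK cell markers 32.7 to 36.4, 37.6 to 43, and 20.1 to 22.9, again in WT, Tnfr1-/-, and Tnfr2-/- samples and with none at 0. These sums hide opposite changes. Most of the monocyte sum in WT was Csf1r, which was called lower in both knockouts, while Ccr2, Cx3cr1, and F13a1 were called higher in both. Among dendritic cell markers, Itgax and Clec9a were called lower and Flt3 higher in both, and among T and NK cell markers, Cd4 was called lower and Cd3d higher in both. The only erythroid gene listed of 8 was at 7.89 to 8.96, 0.341 to 0.614, and 0.183 to 0.233 FPKM, and the only platelet gene of 4 at 104 to 118, 4.14 to 4.24, and 3.12 to 4.30. The part of cell makeup and of the WT value format in the WT comparisons was not tested, and in bulk samples fewer cells of a type and less RNA per cell cannot be told apart.

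The sequences at the start of the ribosomal protein genes are shown first, because many of their mRNAs start with a pyrimidine run and the naming rule did not use it. A run of at least 8 C or T bases on the coding strand, holding at least 1 C and lying within 20 bases of the annotated start, was looked for in the RefSeq promoter windows of GRCm38.p6, which covered 63 of the 84 genes. The run could lie before or after the start, so it need not be part of the mRNA. For a gene with several starts, a run at 1 of them was enough. It was present in 11 of 20 large and small subunit genes (55%), in 13 of 25 genes of the ribosomal class (52%), in 7 of 35 initiation factor genes (20%), and in 18.2% of all 27025 genes with a window. Windows of 7 genes follow, 30 bases each and 5′ to 3′, with the run in capitals.
Rpl13, chr8:123102324-123102353, plus strand: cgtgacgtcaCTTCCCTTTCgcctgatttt
Rpl7a, chr2:26910788-26910817, plus strand: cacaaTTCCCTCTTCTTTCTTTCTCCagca
Rpl35a, chr16:33056468-33056497, plus strand: cggggcttgCCTTCCTCTTTCCgccatctt
Rps18, chr17:33955648-33955677, minus strand: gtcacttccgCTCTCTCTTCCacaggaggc
Rps9, chr7:3704024-3704053, plus strand: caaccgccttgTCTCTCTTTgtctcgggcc
Rps27, chr3:90213632-90213661, minus strand: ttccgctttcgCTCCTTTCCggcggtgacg
Rps27l, chr9:66946063-66946092, plus strand: actcctctccaCTCCTCCCCgccgcctcta
The genes shown include a mild fall (Rpl13), very large falls (Rpl35a and Rps18), and a gene listed as higher (Rps27), whose value is uncertain because a copy shares its coding sequence. In Tnfr2-/- against WT, the median log2 change was -1.17 for the 13 genes with the run and -1.20 for the 12 without it.

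Ribosomal protein genes were lower in both knockouts with 2 exceptions. Against WT, 32 of 34 were called lower in Tnfr2-/- MDSCs, where 57.1% of all genes were called lower, and 2 were called higher, where the table gave 13.6%. In Tnfr1-/- MDSCs 32 were again called lower beside 60.7% of all genes, and 2 higher beside 14.1%. The median log2 change was -1.22 in Tnfr2-/- and -1.33 in Tnfr1-/- MDSCs, against -0.74 and -0.83 for all genes. No ribosomal protein gene overlapped between WT and a knockout, and in each knockout 32 lay wholly below WT, beside 77.2% of the table in Tnfr2-/- and 77.3% in Tnfr1-/- MDSCs, and 2 wholly above, beside 21.1% and 21.7%. All 17 large subunit genes and 10 of 12 small subunit genes were called lower in both knockouts, as were the 5 paralogs and other genes of the prefix. With median-ratio size factors, 12 genes were called lower in Tnfr2-/- and 13 in Tnfr1-/- MDSCs, beside 21% and 22.1% of all genes, the same number of 2 were called higher, and the medians came to -0.22 and -0.19. The scaling thus decided most of the calls of lower genes, and the genes furthest from the table's shift are described next.

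**Figure D1:**
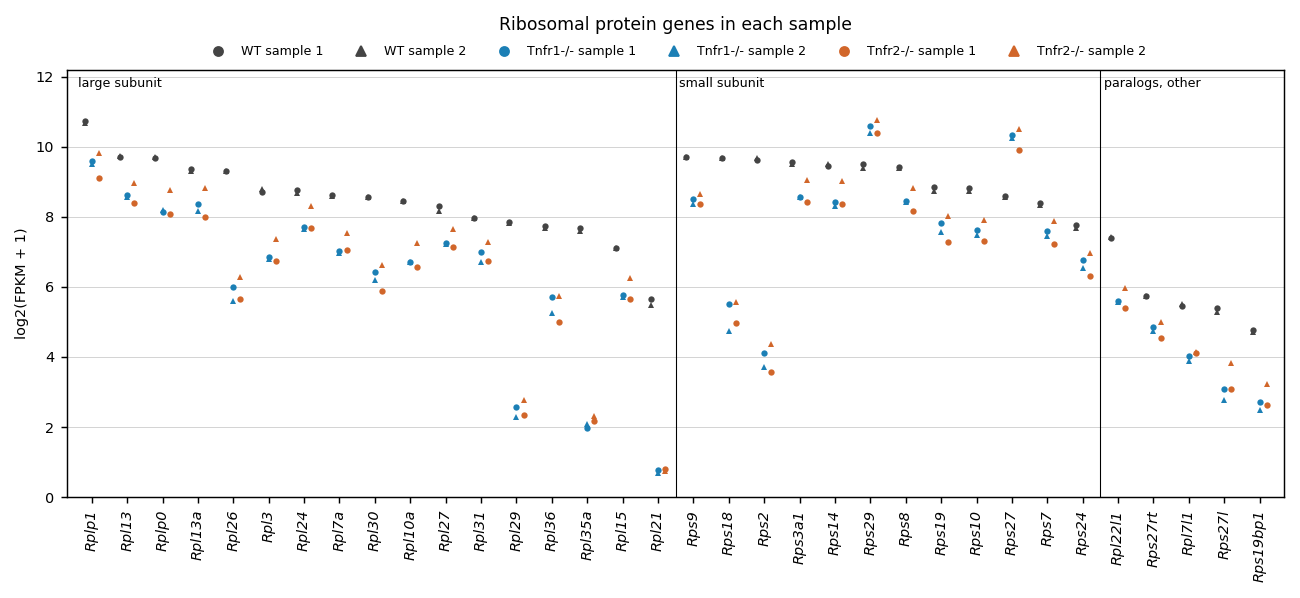
FPKM of the 34 ribosomal protein genes on the log2(FPKM + 1) scale, with 1 point per sample, colored by genotype and shaped by sample number, ordered within each subunit by the WT mean. Rps29 and Rps27 are the 2 genes whose knockout samples lie above WT, and Rpl29, Rpl35a, Rpl21, Rps18, Rps2, and Rpl26 fall furthest below it.

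A set of 6 genes fell by more than 3 on the log2 scale in both knockouts. Rps2, a protein of the small subunit near the mRNA entry site (chr17:24718116-24721929, plus strand, GRCm38), stood at 779 and 819 FPKM in WT, 16.4 and 12.1 in Tnfr1-/-, and 11.0 and 19.7 in Tnfr2-/- samples. Its log2 change was -5.67 ± 0.29 (SE) in Tnfr2-/- (limma adjusted p = 7.66e-05) and -5.73 ± 0.29 in Tnfr1-/- MDSCs (adjusted p = 6.43e-05). Its place among the 8191 genes went from 45 in WT to 1842 in Tnfr1-/- and 1874 in Tnfr2-/- MDSCs by mean FPKM.

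Rpl35a (chr16:33056453-33060189, plus strand), a large subunit protein, stood at 204 and 193 FPKM in WT, 2.91 and 3.22 in Tnfr1-/-, and 3.54 and 3.93 in Tnfr2-/- samples. Its log2 change was -5.40 ± 0.08 in Tnfr2-/- (adjusted p = 5.47e-06) and -5.62 ± 0.08 in Tnfr1-/- MDSCs (adjusted p = 5.29e-06). Rpl29 (chr9:106429454-106431568, plus strand), also of the large subunit, stood at 228 and 226 FPKM in WT, 4.95 and 3.86 in Tnfr1-/-, and 4.03 and 5.87 in Tnfr2-/- samples. By group means, Rpl29 was 45.8-fold and Rpl35a 53.1-fold lower in Tnfr2-/- than in WT MDSCs, and no knockout sample of either gene came near WT. Rpl21 stood at 49.1 and 44 FPKM in WT and between 0.608 and 0.730 in the knockouts. Rps18 stood at 825 and 821 FPKM in WT and between 25.7 and 46.9 in the knockouts, and Rpl26 at 637 and 634 against 47.9 to 76.7. These 6 genes were picked by their change, so the change is a description. Median-ratio size factors left their log2 changes between -4.69 and -2.35 in Tnfr2-/- MDSCs.

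Reads of ribosomal protein genes are hard to place, because the genome carries many processed copies of them. Coding 50-base windows, the length of the reads, were compared with the transcripts of every other gene in GENCODE M21. More than 50% of the windows occurred in another gene for 28 of 29 large and small subunit genes, against 7.04% of the 8166 genes of the table that could be matched. The 6 genes with the deepest falls shared a median of 87.5% of their windows, and the other 23 shared a median of 93.3%. Copies annotated as pseudogenes numbered 81 for Rpl29, 81 for Rpl21, 71 for Rps2, 19 for Rpl35a, 12 for Rpl26, and 9 for Rps18, with a median of 45, against a median of 9 for the other 23 genes. Rpl7a had the most copies, 120, and its log2 change was -1.31 and -1.61. None of the 696 pseudogenes sharing a window with the 84 genes is listed in the table. How the authors placed reads with several matches is not given in the sources used here, and its part in these values was not tested.

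Rps27 and Rps29 were the 2 ribosomal protein genes called higher, and both encode small zinc-binding proteins of the small subunit. Rps27 (chr3:90212522-90213651, minus strand) stood at 387 and 380 FPKM in WT, 1299 and 1206 in Tnfr1-/-, and 966 and 1456 in Tnfr2-/- samples. It rose by 1.63 ± 0.25 on the log2 scale in Tnfr2-/- (adjusted p = 0.00233) and by 1.70 ± 0.25 in Tnfr1-/- MDSCs (adjusted p = 0.00181). Rps29 (chr12:69157722-69159186, minus strand) stood at 728 and 677 FPKM in WT, 1538 and 1354 in Tnfr1-/-, and 1340 and 1753 in Tnfr2-/- samples. Its log2 change was 1.13 ± 0.24 (adjusted p = 0.00765) and 1.04 ± 0.24 (adjusted p = 0.00956). No knockout sample of either gene overlapped WT. Of the coding windows of Rps29, 100% occur in 7 pseudogenes, so its level is uncertain. By mean FPKM, Rps29 was the 5th highest gene of the table in both knockouts and the 52nd in WT, and Rps27 moved from place 105 in WT to 6 in Tnfr1-/- and 8 in Tnfr2-/- MDSCs. The call of Rps29 was lost when either WT sample was left out, with adjusted p between 0.0969 and 0.141 over both knockouts.

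The coding starts of Rps27 and its relatives show which of their values can be told apart. They are given from the GENCODE M21 transcripts, 30 bases each from the start codon, with bases that differ from Rps27 in capitals.
Rps27: atgcctctcgcaaaggatctccttcatccc
Rps27rt: atgcctctcgcaaaggatctccttcatccc
Rps27l: atgccCctGgcTaGAgatctGTtAcaCccT
Over the 252 coding bases, Rps27rt, a retrotransposed copy, is 100% identical to Rps27, and Rps27l, the paralog, differs at 60 bases (76.2% identical). Rps27rt stood at 52.2 and 52.7 FPKM in WT, 27.8 and 25.8 in Tnfr1-/-, and 22.3 and 31.2 in Tnfr2-/- samples, and was called lower in both. With median-ratio scaling Rps27rt was not called, at 0.0062 and 0.17. On the deposited scale Rps27 and Rps27rt were thus listed with opposite changes although no coding read tells them apart, and their values are uncertain for that reason. Rps27l, which can be told apart over most of its length, stood at 41.5 and 38.3 FPKM in WT, 7.54 and 5.78 in Tnfr1-/-, and 7.47 and 13.2 in Tnfr2-/- samples. Its log2 change was -1.90 ± 0.27 in Tnfr2-/- (adjusted p = 0.00179) and -2.43 ± 0.27 in Tnfr1-/- MDSCs (adjusted p = 0.000693). The ratio of Rps27 to Rps27l within a sample went from 9.33 and 9.91 in WT to 172 and 209 in Tnfr1-/- and 129 and 110 in Tnfr2-/- samples.

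Both listed proteins of the large subunit stalk, which recruits the elongation factors, were called lower. Rplp0, its base, stood at 814 and 834 FPKM in WT, 279 and 291 in Tnfr1-/-, and 270 and 432 in Tnfr2-/- samples. Rplp1, which binds to it and had the highest mean of the class in WT, stood at 1704 and 1645, 770 and 723, and 554 and 910 FPKM in the same order. Log2 changes were -1.27 ± 0.25 and -1.53 ± 0.25 for Rplp0 and -1.24 ± 0.29 and -1.17 ± 0.29 for Rplp1 in Tnfr2-/- and Tnfr1-/- MDSCs, with limma adjusted p of 0.0119 or less. Neither was called with median-ratio size factors, at -0.27 and -0.39 for Rplp0 and -0.24 and -0.024 for Rplp1, and quantile normalization put Rplp1 at 0.44 in Tnfr1-/- MDSCs. The Rplp1 calls were lost when either WT sample was left out (adjusted p between 0.0743 and 0.0885). Over all 6 samples, the highest mean of the class belonged to Rps29 and the lowest to Rps19bp1, which is no ribosomal protein but binds one, at 26.2 and 25.1 FPKM in WT, 5.62 and 4.55 in Tnfr1-/-, and 5.18 and 8.28 in Tnfr2-/- samples. It was called lower in both knockouts.

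Summed over the 34 genes, ribosomal protein genes held 15493 and 15251 FPKM in WT, 8020 and 7367 in Tnfr1-/-, and 6657 and 9957 in Tnfr2-/- samples. As a share of all FPKM in the table, they held 4.49% and 4.40% in WT, 5.97% and 5.51% in Tnfr1-/-, and 4.47% and 6.41% in Tnfr2-/- samples. The summed level was thus lower in every knockout sample, while the share was higher in 3 of the 4 and lay within the WT range in Tnfr2-/- sample 1. Rps27 and Rps29, the 2 genes called higher, weigh heavily on both. They held 1299 and 1538 FPKM of the 8020 in Tnfr1-/- sample 1, against 387 and 728 of the 15493 in WT sample 1. The share is therefore no result about the class as a whole, and the values of Rps27 and Rps29 are uncertain. Among the 100 genes with the highest group mean, 16 were ribosomal protein genes in WT and 14 in each knockout.

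On the deposited scale, initiation factor genes were mostly lower. In Tnfr2-/- against WT, 33 of 44 were called lower and 5 (11.4%) higher. In Tnfr1-/- against WT, 33 were called lower and 4 (9.09%) higher. Of all genes, 13.6% and 14.1% were called higher, so the share called higher was not raised in this class. The share called lower was 75% in both, beside 57.1% and 60.7% of all genes. The median log2 change was -0.89 in Tnfr2-/- and -1.18 in Tnfr1-/- MDSCs. With median-ratio size factors, 4 and 9 were called lower, beside 21% and 22.1% of all genes. In each knockout 10 (22.7%) were called higher, close to the 21.8% and 23.3% of all genes. The medians came to 0.030 and -0.13. The direction of this class in Tnfr2-/- MDSCs therefore depended on the scaling.

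**Figure D2:**
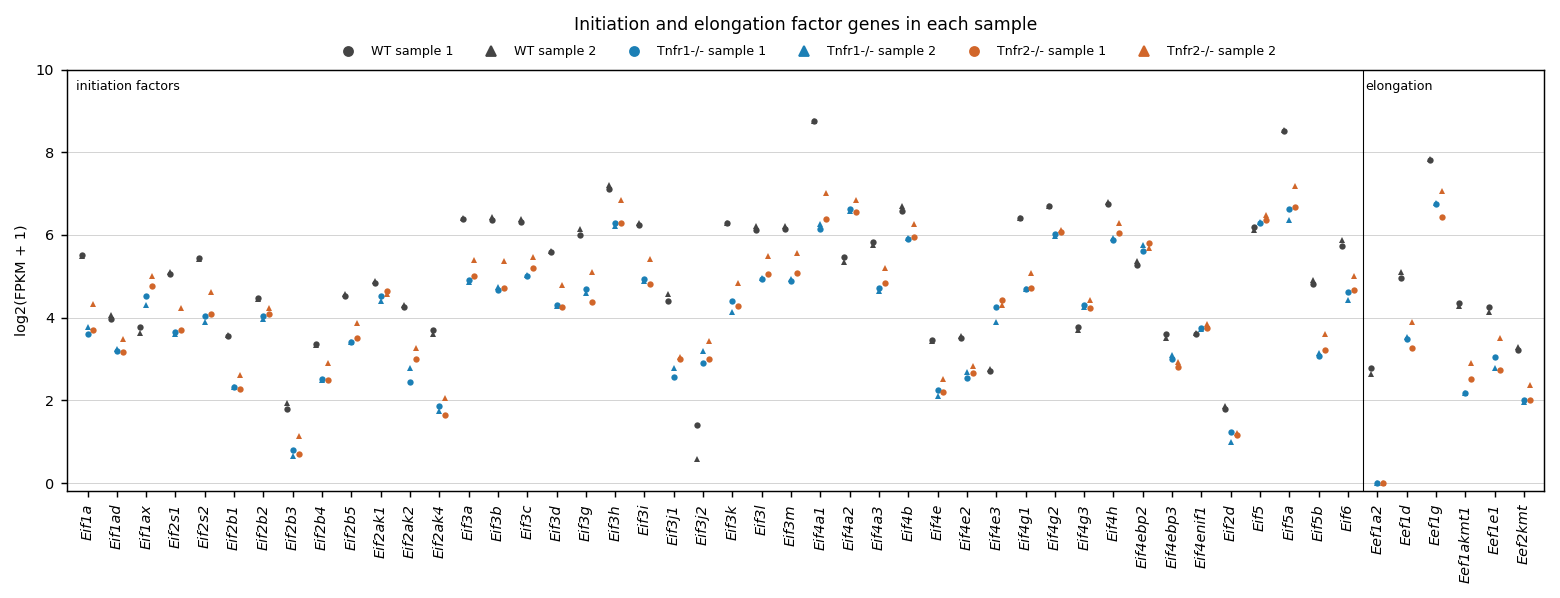
FPKM of the 44 initiation and 6 elongation factor genes on the log2(FPKM + 1) scale, with 1 point per sample, colored by genotype and shaped by sample number, ordered by complex. Eif4a1 and Eif5a show wide gaps below WT. In all 4 knockout samples, 8 initiation factor genes (18.2%) lie above WT, beside 21.1% of the table in Tnfr2-/- and 21.7% in Tnfr1-/- MDSCs. They are Eif1ax, Eif3j2, Eif4a2, Eif4e3, Eif4g3, Eif4ebp2, Eif4enif1, and Eif5.

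Genes of the cap-binding complex eIF4F split between paralogs. Eif4a1, the main RNA helicase of the complex (chr11:69666936-69672423, minus strand), stood at 432 and 433 FPKM in WT, 69.6 and 75.5 in Tnfr1-/-, and 82.1 and 127 in Tnfr2-/- samples. Eif4a2, its close paralog (chr16:23107444-23114136, plus strand), stood at 43.2 and 39.9 FPKM in WT, 97.7 and 94.6 in Tnfr1-/-, and 92.5 and 114 in Tnfr2-/- samples. Neither gene overlapped between WT and the knockouts.

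Eif4a1 had a log2 change of -2.07 ± 0.22 in Tnfr2-/- (adjusted p = 0.000634) and -2.56 ± 0.22 in Tnfr1-/- MDSCs (adjusted p = 0.000283), and Eif4a2 rose by 1.28 ± 0.12 (adjusted p = 0.000434) and 1.19 ± 0.12 (adjusted p = 0.000473). Both directions held with median-ratio size factors. The ratio of Eif4a1 to Eif4a2 within a sample, which no scaling factor changes, went from 9.99 and 10.9 in WT to 0.712 and 0.798 in Tnfr1-/- and 0.888 and 1.12 in Tnfr2-/- samples. Of the coding windows, 96.3% of those of Eif4a1 occur in other genes, among them 8 pseudogenes, and 26.3% of those of Eif4a2, so the level of Eif4a1 is less certain. Eif4a3, a paralog that serves in the exon junction complex, stood at 56.1 and 53.5 FPKM in WT, 25.3 and 23.9 in Tnfr1-/-, and 27.5 and 35.8 in Tnfr2-/- samples and was called lower in both, but its change in Tnfr2-/- MDSCs was 0.19 with median-ratio size factors.

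The scaffold genes of eIF4F showed the same kind of split. Eif4g1, the main scaffold, stood at 84.2 and 84.8 FPKM in WT, 25.0 and 24.7 in Tnfr1-/-, and 25.3 and 33.0 in Tnfr2-/- samples. Eif4g3 stood at 12.6 and 12 FPKM in WT, 18.9 and 18 in Tnfr1-/-, and 17.7 and 20.5 in Tnfr2-/- samples, a log2 change of 0.59 ± 0.09 in Tnfr2-/- (adjusted p = 0.00244) that was called and of 0.55 ± 0.09 in Tnfr1-/- MDSCs (adjusted p = 0.00294) that was under the fold change limit. The call in Tnfr2-/- MDSCs was lost without WT sample 2 or without Tnfr2-/- sample 2. Their ratio went from 6.69 and 7.08 in WT to 1.33 and 1.37 in Tnfr1-/- and 1.43 and 1.61 in Tnfr2-/- samples. Of the coding windows, 0.0421% of those of Eif4g1 and none of those of Eif4g3 occur elsewhere. Eif4g2, which lacks the cap-binding partner site and serves cap-independent initiation, stood at 104 and 103, 63.7 and 62.0, and 66.6 and 68.7 FPKM, and its log2 change turned from -0.61 and -0.71 to 0.38 and 0.42 with median-ratio size factors.

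Eif4e, which binds the cap, stood at 9.92 and 9.89 FPKM in WT, 3.78 and 3.28 in Tnfr1-/-, and 3.58 and 4.69 in Tnfr2-/- samples. Eif4e3, an atypical cap-binding paralog (chr6:99625135-99666771, minus strand), stood at 5.59 and 5.78 FPKM in WT, 18 and 14 in Tnfr1-/-, and 20.5 and 18.8 in Tnfr2-/- samples. It rose by 1.62 ± 0.13 in Tnfr2-/- (adjusted p = 0.000289) and by 1.34 ± 0.13 in Tnfr1-/- MDSCs (adjusted p = 0.000463). The ratio of Eif4e to Eif4e3 went from 1.78 and 1.71 in WT to 0.210 and 0.235 in Tnfr1-/- and 0.175 and 0.250 in Tnfr2-/- samples, so the paralog stood above the classic gene in all 4 knockout samples and below it in WT. Of the coding windows, 58.3% of those of Eif4e occur in 3 pseudogenes, and 46.0% of those of Eif4e3 in 1 other protein-coding gene. The levels of both genes, and so their ratio, are less certain. Eif4e2, a translational repressor, stood at 10.3 and 10.9, 4.85 and 5.39, and 5.29 and 6.17 FPKM, with a log2 change of -0.78 and -0.92 that became 0.094 and 0.084 with median-ratio size factors. Of the genes whose proteins bind eIF4E, Eif4ebp2 stood at 37.7 and 40.1 FPKM in WT and between 48.1 and 54.6 in the knockouts and was not called, but was called higher in both knockouts with median-ratio size factors (1.40 and 1.48). Eif4enif1, which carries eIF4E into the nucleus, stood at 11.2 and 11.3 FPKM in WT and between 12.1 and 13.4 in the knockouts, with the same outcome (1.09 and 1.15). Eif4ebp3 stood at 11.1 and 10.5, 6.97 and 7.63, and 5.98 and 6.64 FPKM and was called lower in Tnfr2-/- MDSCs only (-0.69, against -0.51 in Tnfr1-/- MDSCs), a call lost with median-ratio size factors (0.19). Eif4ebp1 is not in the table.

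**Figure D3:**
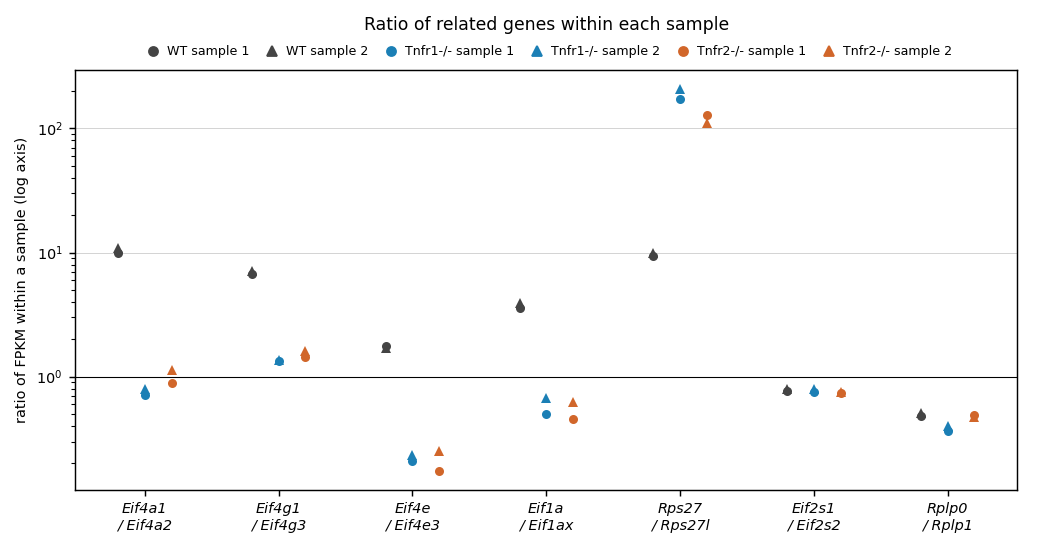
Ratio of the FPKM of 2 related genes within each sample, on a log axis, with 1 point per sample, colored by genotype and shaped by sample number. The ratios of Eif4a1 to Eif4a2, Eif4g1 to Eif4g3, Eif4e to Eif4e3, and Eif1a to Eif1ax are lower in all 4 knockout samples than in WT, that of Rps27 to Rps27l is higher, and that of Eif2s1 to Eif2s2 stays between 0.739 and 0.801.

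The eIF1A genes, which help the scanning ribosome find the start codon, split as well. Eif1a stood at 45 and 43.9 FPKM in WT, 11.1 and 12.8 in Tnfr1-/-, and 11.9 and 19.3 in Tnfr2-/- samples. X-linked Eif1ax (chrX:159372178-159389928, plus strand) stood at 12.6 and 11.3 FPKM in WT, 22 and 18.9 in Tnfr1-/-, and 26.4 and 31 in Tnfr2-/- samples. It rose by 1.20 ± 0.12 in Tnfr2-/- (adjusted p = 0.00062) and by 0.73 ± 0.12 in Tnfr1-/- MDSCs (adjusted p = 0.00304), and Eif1a changed by -1.49 ± 0.22 (adjusted p = 0.0021) and -1.82 ± 0.22 (adjusted p = 0.000958). Their ratio went from 3.57 and 3.89 in WT to 0.504 and 0.678 in Tnfr1-/- and 0.452 and 0.621 in Tnfr2-/- samples. The pairs Eif4a1/Eif4a2, Eif4g1/Eif4g3, Eif4e/Eif4e3, and Eif1a/Eif1ax each joined a gene with a negative to one with a positive log2 change in both knockouts, as deposited and with median-ratio size factors, and these ratios were picked after the values were seen.

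The subunits of eIF3, the scaffold of the initiation complex on the small subunit, were lower but for 1. Of 12 genes, 11 were called lower in each knockout, beside 57.1% of all genes in Tnfr2-/- and 60.7% in Tnfr1-/- MDSCs, and the median log2 change was -1.11 and -1.35, against -0.74 and -0.83 for all genes. Eif3a, the largest subunit, stood at 82.6 and 83.4 FPKM in WT, 28.9 and 28.2 in Tnfr1-/-, and 31.3 and 41.0 in Tnfr2-/- samples, a log2 change of -1.19 ± 0.13 (adjusted p = 0.0008) and -1.51 ± 0.13 (adjusted p = 0.000332). Eif3k, a peripheral subunit, fell most, from 77.7 and 77.7 FPKM in WT to 20.2 and 16.6 in Tnfr1-/- and 18.5 and 27.6 in Tnfr2-/- samples. With median-ratio size factors, 1 of the 12 (8.33%) was called lower in Tnfr2-/- and 2 (16.7%) in Tnfr1-/- MDSCs, below the 21% and 22.1% of all genes.

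The exception was Eif3j2, which stood at 1.65 and 0.491 FPKM in WT, 6.50 and 8.15 in Tnfr1-/-, and 6.94 and 9.83 in Tnfr2-/- samples, a log2 change of 2.22 ± 0.32 (adjusted p = 0.00189) and 2.06 ± 0.32 (adjusted p = 0.00223). Eif3j1, which encodes the same loosely bound subunit, stood at 20.1 and 23.0 FPKM in WT, 4.96 and 5.87 in Tnfr1-/-, and 7.01 and 7.27 in Tnfr2-/- samples. Of the coding windows, 99.7% of those of Eif3j1 and 98.9% of those of Eif3j2 occur in the other gene, so coding reads hardly separate them and their opposite changes are uncertain.

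Genes of eIF2 and its exchange factor eIF2B were mostly called lower. Eif2s1, the alpha subunit that stress kinases phosphorylate, stood at 32.5 and 33.6 FPKM in WT, 11.6 and 11.2 in Tnfr1-/-, and 11.9 and 17.7 in Tnfr2-/- samples. Its ratio to Eif2s2, the beta subunit, stayed between 0.739 and 0.801 in all 6 samples. Of the coding windows, 31.8% of those of Eif2s1 and 73.4% of those of Eif2s2 occur in pseudogenes, so this ratio is less certain. Of 5 eIF2B genes, 4 were called lower in both knockouts, beside 57.1% and 60.7% of all genes, and the fifth, Eif2b2, was not called. Eif2b4 stood at 9.23 and 9.17 FPKM in WT, 4.75 and 4.64 in Tnfr1-/-, and 4.61 and 6.52 in Tnfr2-/- samples. The call of Eif2b4 in Tnfr2-/- MDSCs was lost without either WT sample or without Tnfr2-/- sample 1. Eif2b3, at 2.49 and 2.83, 0.731 and 0.579, and 0.629 and 1.20 FPKM, had the lowest mean of the initiation factor genes over all 6 samples. No eIF2 or eIF2B gene was called lower with median-ratio size factors, and Eif2b2 was called higher, at 0.64 in Tnfr2-/- and 0.61 in Tnfr1-/- MDSCs.

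The eIF2alpha kinases differed among themselves. Eif2ak4 (GCN2), which senses uncharged tRNA, stood at 12.1 and 11.1 FPKM in WT, 2.65 and 2.34 in Tnfr1-/-, and 2.11 and 3.14 in Tnfr2-/- samples, and its log2 change of -1.81 ± 0.16 (adjusted p = 0.000386) and -1.85 ± 0.16 (adjusted p = 0.000313) was also called with median-ratio size factors. Eif2ak2 (PKR), which senses double-stranded RNA, stood at 18.2 and 18.8 FPKM in WT, 4.45 and 5.86 in Tnfr1-/-, and 7.03 and 8.55 in Tnfr2-/- samples and was called lower in both. The call held with median-ratio size factors in Tnfr1-/- (-0.64) but not in Tnfr2-/- MDSCs (-0.24). Eif2ak1 (HRI), which senses heme, stood at 27.8 and 28.6, 22 and 20.1, and 23.8 and 23.0 FPKM, with changes of -0.26 and -0.41 that were under the fold change limit and turned to 0.69 and 0.69, called higher, with median-ratio size factors. Eif2ak3 is not in the table.

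Among the late factors, Eif5a, which relieves stalled ribosomes, stood at 368 and 374 FPKM in WT, 97.5 and 80.9 in Tnfr1-/-, and 101 and 144 in Tnfr2-/- samples. Its log2 change was -1.61 ± 0.20 in Tnfr2-/- (adjusted p = 0.00109) and -2.05 ± 0.20 in Tnfr1-/- MDSCs (adjusted p = 0.000436), and both falls were also called with median-ratio size factors. Eif5, the GTPase activator of eIF2, stood at 72.4 and 68.8 FPKM in WT, 77.9 and 79.1 in Tnfr1-/-, and 81.9 and 89.0 in Tnfr2-/- samples. Its change was 0.27 ± 0.08 in Tnfr2-/- (adjusted p = 0.0196) and 0.15 ± 0.08 in Tnfr1-/- MDSCs (adjusted p = 0.112) and was not called, but it was 1.25 and 1.28, called higher, with median-ratio size factors. Eif6, which keeps the subunits apart, stood at 52.5 and 58.0, 23.6 and 20.6, and 24.4 and 30.9 FPKM and was called lower in both, a call lost with median-ratio size factors, where its change was -0.011 and -0.18.

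**Figure D4:**
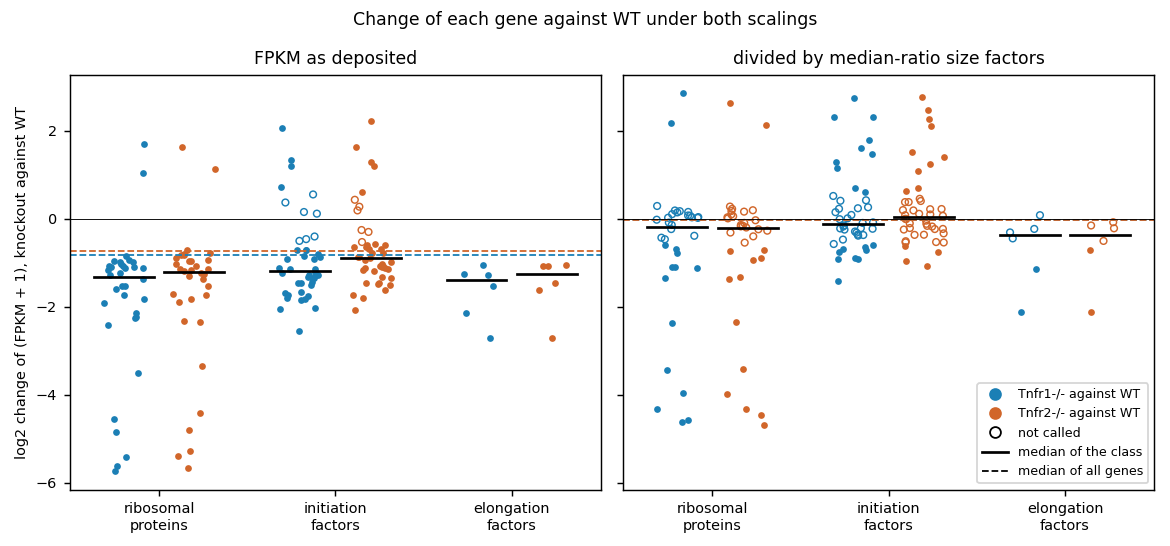
Log2 change against WT of each ribosomal protein, initiation factor, and elongation factor gene, from FPKM as deposited (left) and after division by median-ratio size factors (right), with filled points called, open points not called, a bar at the class median, and dashed lines at the median of all 8191 genes. The median of the ribosomal protein genes moved from -1.22 to -0.22 in Tnfr2-/- and from -1.33 to -0.19 in Tnfr1-/- MDSCs, while single genes stayed far above or below.

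All 6 elongation factor genes were called lower in both knockouts, beside 57.1% of all genes in Tnfr2-/- and 60.7% in Tnfr1-/- MDSCs, with median log2 changes of -1.26 and -1.40 against -0.74 and -0.83 for all genes. Of these, 3 encode subunits of eEF1. Eef1g, of the nucleotide exchange complex, stood at 223 and 228 FPKM in WT, 107 and 109 in Tnfr1-/-, and 86.0 and 133 in Tnfr2-/- samples. Eef1d, the exchange subunit, stood at 30.3 and 33.5, 10.1 and 10.6, and 8.70 and 13.9 FPKM.

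Eef1a2, the form of eEF1A known from muscle and neurons, stood at 5.93 and 5.25 FPKM in WT and is listed at 0 in all 4 knockout samples. It is 1 of 158 genes listed at 0 there, and no fold is given for it. Its ubiquitous paralog Eef1a1 is not in the table.

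The other 3 encode partners of the elongation factors. Eef1akmt1, a lysine methyltransferase of eEF1A, stood at 19.4 and 18.6 FPKM in WT, 3.5 and 3.52 in Tnfr1-/-, and 4.73 and 6.43 in Tnfr2-/- samples. Eef2kmt, the methyltransferase of eEF2, stood at 8.23 and 8.83, 3.02 and 2.90, and 3.04 and 4.15 FPKM. Eef1e1, a scaffold of the aminoacyl-tRNA synthetase complex, stood at 18.1 and 16.5, 7.25 and 5.92, and 5.70 and 10.4 FPKM, and its call in Tnfr2-/- MDSCs was lost without either WT sample (adjusted p = 0.0763 and 0.0581). With median-ratio size factors, only Eef1a2 and Eef1akmt1 of the 6 were called lower, beside 21% and 22.1% of all genes.

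Between the knockouts, which addresses what loss of one receptor does beside loss of the other, no gene of the 84 was called by limma. In the table, 0.842% of genes were called higher and 0.61% lower in Tnfr2-/- against Tnfr1-/- MDSCs. At an unadjusted limma p under 0.05 there were 6 of the 84 genes (24% of the table), and with median-ratio size factors none was called either, beside 1.09% of the table higher and 1.45% lower. The smallest limma adjusted p belonged to Eif1ax (0.111), Eef1akmt1 (0.113), and Eif2ak2 (0.131), with log2 changes of 0.47 ± 0.12, 0.53 ± 0.14, and 0.52 ± 0.15. Both Tnfr2-/- samples of these 3 genes lay above both Tnfr1-/- samples. That held for 30 of the 84 genes, of which 25 were initiation factor genes, and the reverse for 1, beside 34.9% and 16.1% of the table. The median log2 change was 0.13 for ribosomal protein, 0.23 for initiation factor, and 0.14 for elongation factor genes, against 0.06 for all genes. With median-ratio size factors these medians were -0.0063, 0.11, and 0.039, against -0.015 for all genes. The median of the ribosomal protein genes thus changed sign with the scaling, where 17 of them were above 0 and 17 below.

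The Tnfr2-/- samples stood apart from each other in these genes. Sample 2 was higher than sample 1 for 33 of 34 ribosomal protein genes, with a median ratio of 1.54, for 41 of 44 initiation factor genes, with a median ratio of 1.31, and for 5 of 6 elongation factor genes, with a median ratio of 1.54. Of all genes, 57.6% were higher in sample 2, with a median ratio of 1.06. For the ribosomal protein genes, the ratio of sample 2 to sample 1 had a median of 0.985 in WT and 0.902 in Tnfr1-/- MDSCs. The 3 listed granulocyte markers (Retnlg, Mmp9, and Csf3r) summed to 2450 FPKM in Tnfr2-/- sample 1 and 1522 in sample 2, the 8 macrophage markers to 389 and 355, the 4 monocyte markers to 465 and 547, and the 5 B and plasma cell markers to 2352 and 2334. The part of cell makeup in this difference was not tested.

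The difference between the knockouts depended on the samples used. With each sample left out in turn, the median log2 change was -0.13 to 0.39 for ribosomal protein and 0.053 to 0.41 for initiation factor genes. For elongation factor genes it was -0.087 to 0.38, against 0.031 to 0.083 for all genes. In Tnfr2-/- against WT, the median change of the ribosomal protein genes was -0.90 without Tnfr2-/- sample 1 and -1.49 without Tnfr2-/- sample 2. Without WT sample 1 it was -1.20.

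**Figure D5:**
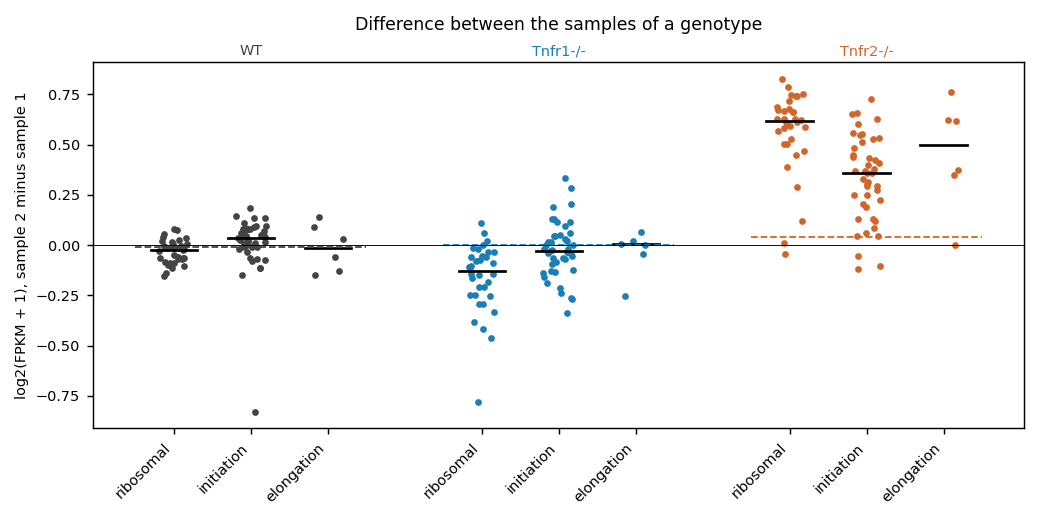
Difference of log2(FPKM + 1) between sample 2 and sample 1 of each genotype for every ribosomal protein, initiation factor, and elongation factor gene, with a bar at the class median and a dashed line at the median of all genes. Nearly all points of Tnfr2-/- lie above 0. WT and Tnfr1-/- points lie on both sides, but only 4 of the 34 ribosomal protein genes of Tnfr1-/- lie above 0.

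Other genes of the translation machinery were followed as lists. Of 60 ribosome biogenesis genes, which make and assemble ribosomal RNA and subunits, 31 are listed. Of these, 28 were called lower in Tnfr2-/- and 30 in Tnfr1-/- MDSCs, and none higher, with medians of -1.17 and -1.27. Here and for the lists that follow, the shares of all genes called lower were 57.1% and 60.7%, or 21% and 22.1% with median-ratio size factors. With those factors 8 and 6 biogenesis genes were called lower and 1 and 1 higher, with medians of -0.27 and -0.23. Gnl3 (nucleostemin) stood at 35.2 and 33.9 FPKM in WT, 8.0 and 7.7 in Tnfr1-/-, and 5.0 and 11.8 in Tnfr2-/- samples. Polr1a, the largest subunit of RNA polymerase I, stood at 4.6 and 4.3 FPKM in WT and between 6.0 and 7.2 in the knockouts.

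Of 23 genes of cytosolic aminoacyl-tRNA synthetases and their scaffolds, 19 are listed, Eef1e1 among them. In Tnfr2-/- MDSCs 16 and in Tnfr1-/- MDSCs 18 were called lower, with medians of -1.19 and -1.50, and with median-ratio size factors 3 and 5 were called lower and none higher, with medians of -0.26 and -0.46. Of 19 genes of termination, recycling, and poly(A) binding, 12 are listed, of which 8 and 11 were called lower and 1 higher in each, with medians of -0.90 and -0.96 that came to 0.021 and 0.060 with median-ratio size factors, where 1 and 1 were called lower and 2 and 1 higher. On the deposited scale the higher gene was Pdcd4, an inhibitor of the eIF4A helicase, at 2.4 and 2.3 FPKM in WT, 35.0 and 43.7 in Tnfr1-/-, and 31 and 30.3 in Tnfr2-/- samples.

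Of 17 genes of mTORC1, S6 kinases, and MNK kinases, 13 are listed, and 8 were called lower and none higher in each knockout, close to the share of all genes, with medians of -0.89 and -0.96. Under median-ratio scaling 1 and 2 were called lower and 0 and 3 higher, with medians of -0.044 and -0.029. Of 15 genes of the integrated stress response, which phosphorylated eIF2alpha sets off, 7 are listed, and 5 were called lower in each knockout, with medians of -0.60 and -0.62 that turned to 0.26 and 0.47 with median-ratio size factors, where 2 were called lower and 2 higher in each. In Tnfr1-/- MDSCs 1 was called higher, Ppp1r15b, which helps to dephosphorylate eIF2alpha, at 35.5 and 34.9 FPKM in WT, 55.6 and 51.2 in Tnfr1-/-, and 55.3 and 46.1 in Tnfr2-/- samples. Fau, the only 1 listed of 4 ribosomal protein genes with other symbols, stood at 852 and 846 FPKM in WT and between 315 and 386 in the knockouts and was called lower in both, but not with median-ratio size factors.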

How the data were processed

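RNA-seq was performed on 6 samples of splenic MDSCs, 2 each of aged WT, Tnfr1-/-, and Tnfr2-/- mice, grouped by the deposited genotype labels. Cells of 5 mice were pooled per sample, single-end reads of 50 bases were sequenced on an Illumina HiSeq system, and the submitters' processing notes name FastQC, edgeR, and mm10. The authors deposited FPKM values of 8191 genes with a p-value per gene, and listed only genes with a p-value under 0.05. One-way ANOVA on the FPKM values gave the deposited p-value within 1% for 8191 of 8191 genes, and those p-values were not used further. The aligner and the tool that made the FPKM values are not given in the sources used here, and the depth behind each value is unknown.

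Genes were compared with limma 3.58.1 (R 4.3.3, eBayes with trend) on log2(FPKM + 1) in 1 model of the 6 samples, two-sided, with Benjamini-Hochberg adjustment over 8191 genes and calls at an adjusted p under 0.05 and a fold change over 1.5. edgeR, named by the authors, needs counts and was not run. Data were simulated for Tnfr2-/- against WT over 8191 genes, with independent noise per gene and no shift shared by the genes of a sample. On these data, the model called 67 of 100 genes changed by 1 on the log2 scale, 94 of 100 changed by 2, and 2 of 7991 unchanged ones. The measured samples do have shared shifts, so these rates need not hold for them. Alternatives were a pseudocount of 0.1, genes with a mean of at least 1 FPKM, scaling by median-ratio size factors or by quantile normalization, a replicate block, only the groups compared, eBayes run without the trend, and leaving out each sample.

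Members and lists (ribosomal protein genes with other symbols, termination and poly(A) binding, mTORC1 and kinases, integrated stress response, ribosome biogenesis, aminoacyl-tRNA synthetases, and markers of 9 cell types) were chosen with earlier results of these data known. Genes given with values were the 3 ribosomal protein and the 3 initiation factor genes with the largest called rise and fall per knockout, every elongation factor gene, the 3 members with the smallest adjusted p between the knockouts, the highest and lowest mean of each class, a fixed list of factors, and listed paralog pairs. Rpl21, Rpl26, Rps18, Rpl7a, Rps27rt, Eif2b2, Eif3j1, Eif4ebp2, Eif4ebp3, Eif4enif1, and the genes of the other lists were added once their values had been seen. Positions and coding windows are from GENCODE M21 (GRCm38), where 84 of 84 members matched, and promoter windows from RefSeq (GRCm38.p6). Samples sharing a replicate number were not known to be paired, and whether they came from separate cell preparations is known only from the study's statement of independent experiments. The p-values measure the spread between these samples, which may be partly technical. Python 3.11.15, NumPy 2.4.6, pandas 2.3.3, and matplotlib 3.10.9 were used.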

Additional observations from a re-analysis of the deposited data

How the results depend on the processing

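Scaling decided most of what changed. With median-ratio size factors, called genes of the table against WT came to 1787 higher and 1717 lower in Tnfr2-/- (median -0.032) and 1908 and 1814 in Tnfr1-/- MDSCs (median -0.033), and between the knockouts 119 were called lower and the median was -0.015. Ribosomal protein genes called lower came to 12 and 13 (medians -0.22 and -0.19), initiation factor genes to 10 higher and 4 lower (0.030) and 10 higher and 9 lower (-0.13), and elongation factor genes to 2 and 2 lower (-0.36 and -0.38), in Tnfr2-/- and Tnfr1-/- MDSCs against WT. With quantile normalization, the table gave 1685 higher and 1850 lower (-0.047), 1738 and 2058 (-0.062), and between the knockouts 121 and 117 (0.0020), ribosomal protein genes 12 and 13 lower (-0.14 and -0.12), initiation factor genes 8 higher and 7 lower (-0.10) and 8 higher and 10 lower (-0.27), and elongation factor genes 3 and 3 lower (-0.51 and -0.57). The cause was not tested.

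Of 79 named gene results, 10 turned direction under median-ratio scaling and 8 under quantile normalization, and none under the other alternatives tried. In Tnfr2-/- against WT the values under the first and the second of these scalings were 0.69 and 0.52 for Eif2ak1, 0.21 and 0.062 for Eif2b4, 0.19 and 0.048 for Eif4a3, and 0.38 and 0.25 for Eif4g2, and Eif4e2 was at 0.094 with the former. In Tnfr1-/- against WT they were 0.69 and 0.50 for Eif2ak1, 0.42 and 0.34 for Eif4g2, and 0.079 and 0.17 for Eef1g, with 0.15 for Eif2b4 and 0.084 for Eif4e2 under the former and 0.44 for Rplp1 under the latter.

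A pseudocount of 0.1 moved the medians of the table to -0.97 in Tnfr2-/- and -1.11 in Tnfr1-/- MDSCs, those of the initiation and elongation factor genes in Tnfr1-/- MDSCs to -1.27 and -1.55, and the genes called lower between the knockouts to 79. A mean of at least 1 FPKM gave medians of -0.85 and -0.97 and 146 genes called higher between the knockouts. Between the knockouts, only the 2 groups compared gave 0 genes higher and 0 lower by limma over the table, eBayes without trend 9 and 6, and the replicate block 2 and 5. The block changed no call of a named gene, and deviations of samples with the same number correlated at 0.022 to 0.046. These values show no sign of pairing by number, but they cannot tell whether the samples were prepared in pairs.

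Leaving out each sample in turn gave, for the table, a median of -0.77 to -0.66 in Tnfr2-/- against WT and, between the knockouts, 0 to 535 genes higher and 1 to 127 lower, with 535 and 127 without Tnfr2-/- sample 1. In Tnfr2-/- against WT, 1 to 2 ribosomal protein genes were higher and 21 to 32 lower (medians -1.49 to -0.90), and the medians were -1.11 to -0.69 for initiation and -1.60 to -1.02 for elongation factor genes. In Tnfr1-/- against WT, 1 to 2 ribosomal protein genes were higher. Between the knockouts, 0 to 4 ribosomal protein, 0 to 8 initiation factor, and 0 to 1 elongation factor genes were called higher. Without read counts, the precision of low values such as those of Rpl21 and Eef1a2 in the knockouts is unknown.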
